A study of Saccharomyces cerevisiae with 16 samples.

Results

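Polysomal mRNA of yeast electroporated with rancRNA_18-M2 was compared with polysomal mRNA of yeast electroporated without RNA. The members of the comparison are 6 of the 16 deposited samples, 3 labelled rancRNA_18-M2 and 3 labelled no RNA, taken by electroporation and fraction from the sample titles and paired by replicate number. All groups are the Saccharomyces cerevisiae strain trm10∆, which lacks the tRNA methyltransferase gene TRM10, so controls and treated cells carry the same deletion. Electroporation was done on spheroplasts, whose cell wall has been removed, and the cells recovered before lysis. Polysomal fractions of a density gradient were pooled for RNA extraction, followed by poly(A) enrichment. The labels state neither how rancRNA_18-M2 differs from rancRNA_18, nor the RNA dose or recovery time, nor whether replicates are separate cultures. The p-values therefore measure the spread between these samples, which may be technical.

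Polysomes are mRNAs that carry several ribosomes at the same time, and a gradient parts them from free mRNA and from single ribosomes by their mass. Sequencing their poly(A) RNA shows the composition of the pool of translated messages, as shares of each library and not as amounts per cell. Ribosome-associated noncoding RNAs, or rancRNAs, are short RNAs that bind ribosomes. In yeast, rancRNA_18 derives from the TRM10 mRNA and is known for lowering protein synthesis under stress.

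Reads in genes numbered 17902959 to 31148081 per library over the 6 libraries, with the most in no RNA replicate 3, and 17988043 to 21738396 with rancRNA_18-M2. TRM10 had 5, 4 and 2 reads in replicates 1, 2 and 3 with no RNA and 0 in each rancRNA_18-M2 library, and by counting error alone a 0 is compatible with as many as 3 reads. For comparison, 519 to 1043 reads fell in the adjacent gene YPQ1 and 210 to 315 in RFC4, on its other side. The TRM10 difference had a two-sided exact permutation p of 0.1 (n = 3 each), the smallest this design can give. In total mRNA TRM10 had 0, 3 and 0 reads with no RNA and 1, 0 and 2 with rancRNA_18-M2, so the groups overlapped there. Nuclear noncoding RNAs took 0.004723 to 0.007198% of reads with no RNA and 0.004532 to 0.006649% with rancRNA_18-M2, so the groups overlapped.

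No gene of the 6106 tested differed at an adjusted p under 0.05 between rancRNA_18-M2 and no RNA by edgeR's quasi-likelihood test with Benjamini-Hochberg adjustment (0 higher and 0 lower, 0%). The same count of 0 was obtained with the replicate number as a block, which subtracts what libraries of the same number have in common, and by DESeq2. The smallest adjusted p was 0.9998 without and 0.7268 with the block. Before adjustment, p was under 0.05 for 38 genes without the block (0.622%), 42 by DESeq2 and 417 with the block (6.83%), of which 229 were higher (3.75%) and 188 lower (3.08%) with rancRNA_18-M2. Without the libraries of replicate 1 the blocked count was 246, without replicate 2 it was 482 and without replicate 3 it was 809, again with 0 genes past the adjusted threshold.

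The replicate number set most of the spread. Over 4367 genes with a mean of at least 20 CPM (read counts scaled to library size, with TMM factors) in the 6 libraries, the replicate number accounted for 82.5% of the sum of squares of log2 CPM, the electroporation for 5.87% and the remainder for 11.7%. Per degree of freedom, the mean square of the electroporation was 0.0321 and that of the remainder 0.0319. The mean squares of the electroporation and of the disagreement between pairs were thus close to equal. Deviations from the group means correlated at 0.611, 0.898 and 0.799 across genes for the same-numbered libraries of replicates 1, 2 and 3. For libraries of different number the values ran from -0.625 to -0.0886. Deviations within a group sum to 0 for each gene, so positive same-number values push these below 0, and they add no separate evidence.

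**Figure D1:**
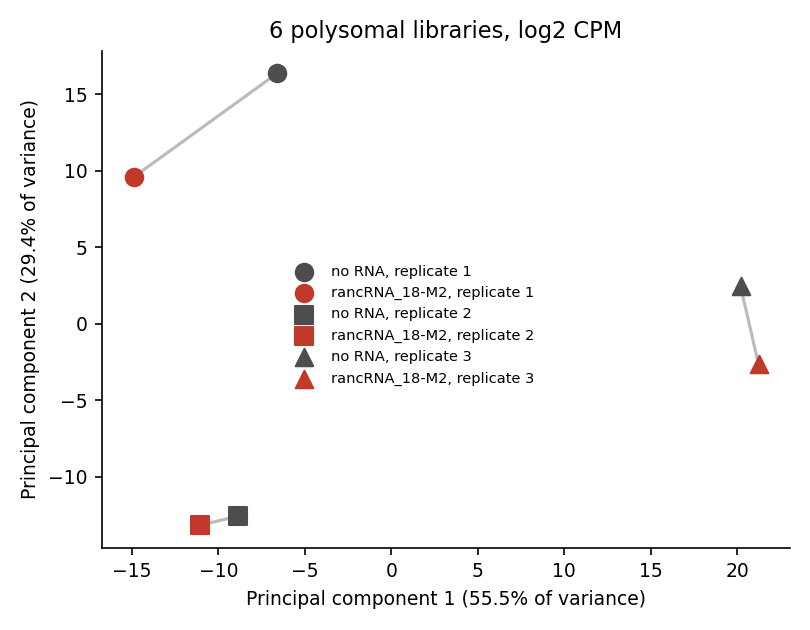
Principal components 1 and 2 of log2 CPM of the 6 polysomal libraries, in percent of variance. Colour gives the electroporation, the marker shape the replicate number, and a line joins libraries of the same number. Values are given for rancRNA_18-M2 first, then no RNA. Component 1 sets replicate 3 (21.2 and 20.2) apart from replicate 1 (-14.9 and -6.60) and replicate 2 (-11.1 and -8.86). Replicates 1 and 2 lie apart on component 2, at 9.58 and 16.35 against -13.16 and -12.57.

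The 3 same-numbered pairs differed in how far the electroporations lay apart. The SD over genes of the log2 ratio of rancRNA_18-M2 to no RNA was 0.354 in pair 1, 0.125 in pair 2 and 0.214 in pair 3. A ratio beyond 2-fold occurred in 35 of the 4367 genes in pair 1 (16 higher, 19 lower), in 0 in pair 2 and in 3 in pair 3. Across these genes the ratios of pairs 1 and 2 correlated with a Pearson r of 0.37, those of pairs 2 and 3 with 0.05, and those of pairs 1 and 3 with -0.20. The pairs share no library, and genes are not independent points. Pairs 1 and 3 had the same sign in 41.8% of genes, pairs 1 and 2 in 60.2%. Of all 6106 genes, 751 were higher in each pair (12.3%) and 801 lower in each pair (13.1%).

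The data set a limit on how large a change could be. With the block, the median standard error of a log2 fold change was 0.11 for genes at 20 CPM or more, and 0.21 without it. The 95% interval lay within a 2-fold change in either direction for 5595 of 6106 genes (91.6%) with the block and for 5106 (83.6%) without. Among the 1460 genes over 100 CPM it did so for 1460 with the block, and among the 425 genes under 1 CPM for 13. No gene at 20 CPM or more reached a 2-fold change in the blocked estimates, which ran from -0.54 to 0.69 on the log2 scale.

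Genes were named by the smallest p at 20 CPM or more, 12 per direction with the block and the same direction in all pairs, and 6 per direction without it, which gave 28 genes. The same readout chose them, so their values are a description, and with the block each of the 28 had an adjusted p of 0.7268 by edgeR's quasi-likelihood test. There were 15 with a higher and 13 with a lower value with rancRNA_18-M2. In 7 of the 28 the libraries of the groups did not overlap (3 higher, 4 lower), against 53 (0.868%) and 65 (1.06%) of all genes. In 24 of the 28 the largest of the 3 ratios came from pair 1.

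**Figure D2:**
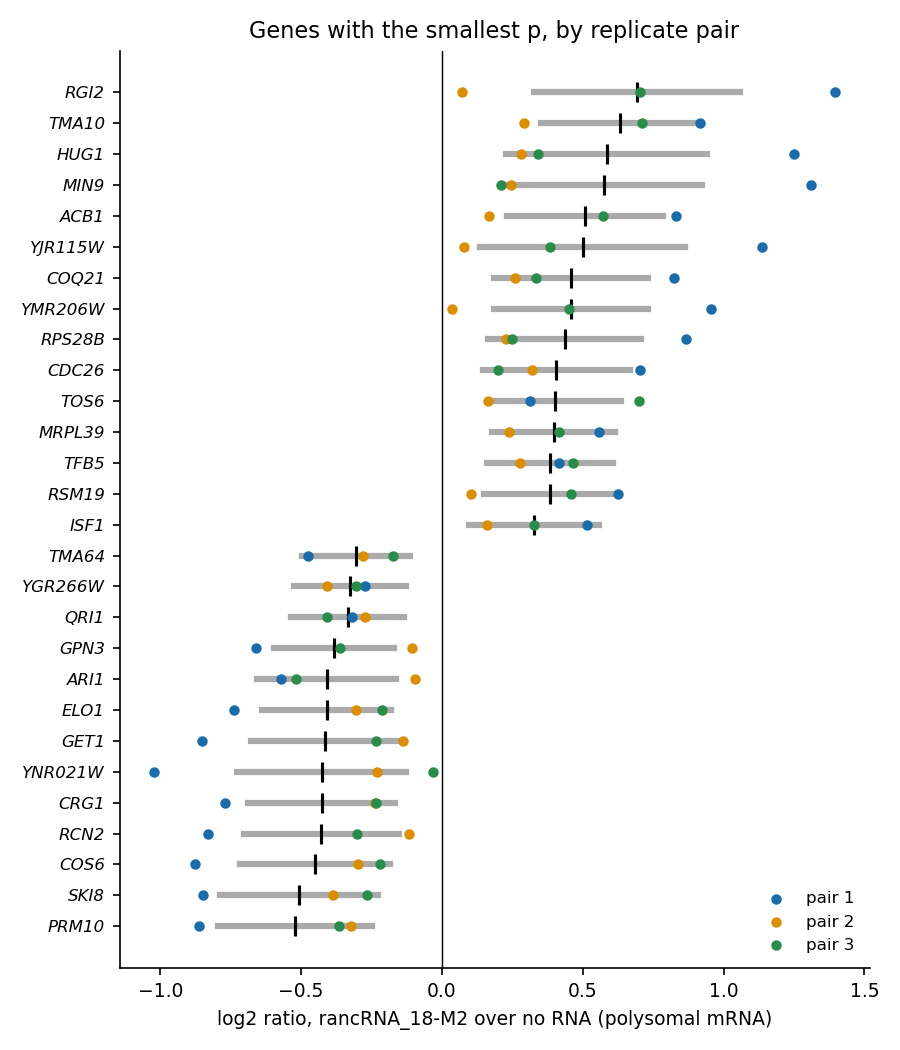
Log2 ratio of rancRNA_18-M2 to no RNA in polysomal mRNA for the 28 named genes, 1 row per gene. Points are the 3 same-numbered pairs, black ticks the estimate with the replicate block and grey bars its 95% interval (edgeR). Values with the block run from 0.33 to 0.69 for the 15 genes on the higher side and from -0.52 to -0.31 for the 13 on the lower side, and pair 1 lies outermost for 24 genes.

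The gene with the smallest blocked p, TMA10, which encodes a small protein found with ribosomes, had 826, 887 and 530 CPM in replicates 1, 2 and 3 with no RNA and 1560, 1085 and 868 CPM with rancRNA_18-M2. Its level was higher in each pair, although the groups overlapped, because rancRNA_18-M2 replicate 3 lay below no RNA replicate 2. The blocked log2 fold change was 0.63 (SE 0.13, 95% interval 0.35 to 0.91, unadjusted p = 0.0001597). RGI2, induced in respiratory growth, had 15.2, 36.9 and 28.1 CPM with no RNA and 40.2, 38.7 and 45.8 CPM with rancRNA_18-M2. The groups did not overlap, with no RNA replicate 1 the lowest library and no RNA replicate 2 close to the rancRNA_18-M2 values. Its blocked log2 fold change was 0.69 (SE 0.17). Without the block it was 0.64, and 0.36 without no RNA replicate 1.

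ACB1 encodes the acyl-CoA-binding protein, a carrier of activated fatty acids. It had 617, 842 and 469 CPM with no RNA and 1098, 946 and 697 CPM with rancRNA_18-M2. Each pair showed the higher value with rancRNA_18-M2, with overlap between the groups, and the blocked log2 fold change was 0.51 (SE 0.13). RPS28B, of the small ribosomal subunit, had 336, 447 and 415 CPM against 612, 524 and 493 CPM, so all 3 rancRNA_18-M2 libraries lay above all 3 with no RNA. Its blocked log2 fold change was 0.44 (SE 0.13). RPS28B has a near copy, RPS28A, and reads may be split between them. RPS28A had 2562, 3389 and 1514 CPM against 4194, 4183 and 1707 CPM, higher in each pair with overlapping groups, at 0.38 (SE 0.15).

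TFB5 encodes a subunit of TFIIH, the factor that opens promoters and takes part in DNA repair. It had 40.6, 49.0 and 34.4 CPM with no RNA and 54.3, 59.3 and 47.5 CPM with rancRNA_18-M2. Its ratios were the most alike among the 15 genes of the higher side, at 0.42, 0.28 and 0.47 on the log2 scale in pairs 1, 2 and 3. HUG1, a small inhibitor of ribonucleotide reductase induced by DNA damage, had 102, 169 and 53.4 CPM against 243, 205 and 67.7 CPM. The mitochondrial ribosomal genes MRPL39 and RSM19 had blocked log2 fold changes of 0.40 (SE 0.10) and 0.38 (SE 0.11). CDC26, of the anaphase-promoting complex, stood at 0.41 (SE 0.12), and ISF1, known from respiratory growth, at 0.33 (SE 0.11). TOS6, COQ21, MIN9, YMR206W and YJR115W completed the higher side, between 0.40 and 0.57.

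Among the 13 genes of the lower side were PRM10, SKI8, ELO1, GET1 and GPN3. PRM10, named for its regulation by pheromone, had 113, 85.6 and 84.8 CPM with no RNA and 61.8, 68.4 and 65.8 CPM with rancRNA_18-M2. The groups did not overlap, and the blocked log2 fold change was -0.52 (SE 0.13). In the RefSeq R64 annotation PRM10 overlaps YJL107C, so its reads are uncertain. SKI8, a subunit of the Ski complex that feeds mRNA to the exosome, had 74.5, 41.3 and 55.3 CPM against 41.4, 31.6 and 45.9 CPM. It was lower in each pair while the groups overlapped, at -0.51 (SE 0.13), whereas 22 of 33 mRNA decay genes lay above 0.

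ELO1, a fatty acid elongase of the endoplasmic reticulum, had 39.7, 34.4 and 34.7 CPM with no RNA and 23.8, 27.8 and 29.9 CPM with rancRNA_18-M2. The groups did not overlap, and the blocked log2 fold change was -0.41 (SE 0.11). GET1, part of the membrane receptor that inserts tail-anchored proteins, had 66.7, 47.2 and 43.2 CPM against 36.9, 42.9 and 36.6 CPM. Again the groups did not overlap, by a margin of less than 1 CPM, and the log2 fold change was -0.42 (SE 0.12). GPN3, a GTPase needed to assemble RNA polymerases, had 62.9, 40.8 and 45.3 CPM against 39.8, 37.9 and 35.2 CPM, also without overlap, at -0.38 (SE 0.10).

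The remaining 8 genes on the lower side lay between -0.45 and -0.31. They include QRI1, of UDP-N-acetylglucosamine synthesis (-0.33, SE 0.10), TMA64, the yeast counterpart of the initiation factor eIF2D (-0.31, SE 0.09), RCN2, a calcineurin regulator (-0.43, SE 0.13), the aldehyde reductase gene ARI1 (-0.41, SE 0.12) and the methyltransferase gene CRG1 (-0.43, SE 0.12). COS6 (-0.45, SE 0.13) belongs to a subtelomeric family of like genes whose reads may be shared. YGR266W and YNR021W were at -0.33 (SE 0.10) and -0.43 (SE 0.14).

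**Figure D3:**
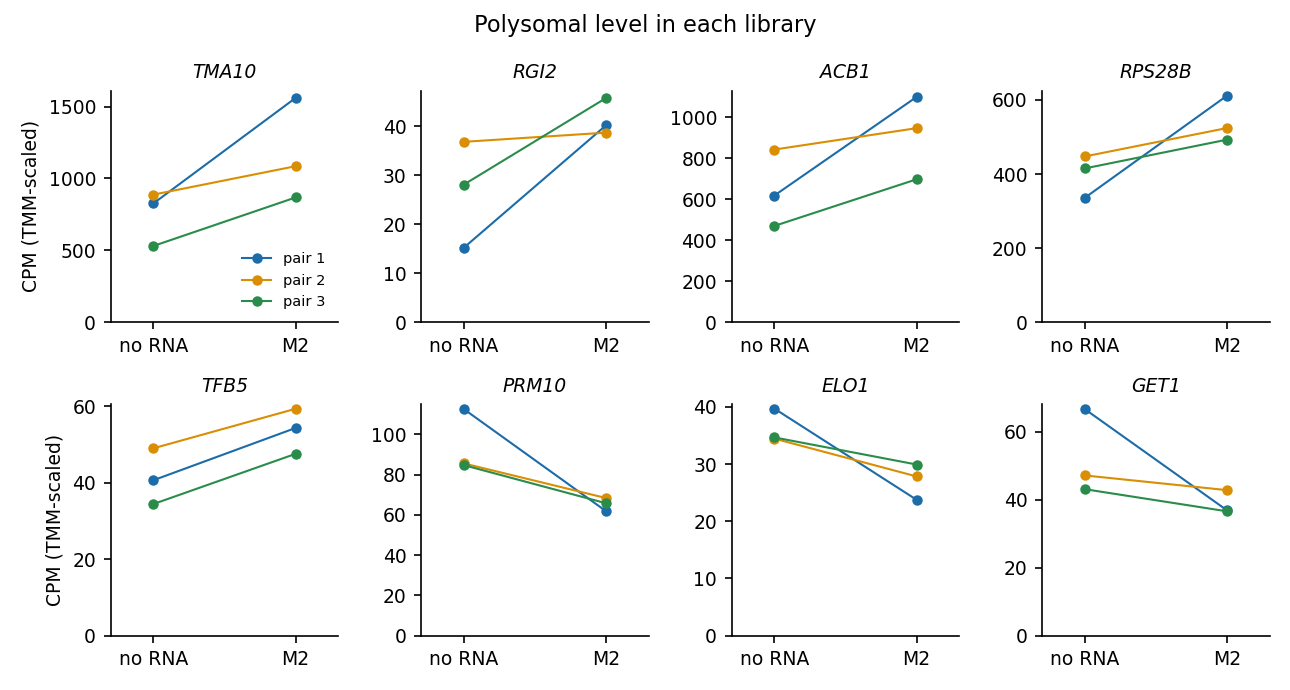
CPM (TMM-scaled, linear axes from 0) of 8 named genes in each polysomal library, with no RNA on the left and rancRNA_18-M2 (M2) on the right. Lines join libraries of the same replicate number. TMA10, RGI2, ACB1, RPS28B and TFB5 go up and PRM10, ELO1 and GET1 go down in each pair, and pair 1 is the steepest line for each of the 8.

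Total mRNA was sequenced in other libraries, which entered the same fit and shared its dispersion and replicate terms. The total values of the named genes are therefore a description and not an independent reading. With the block, 27 of the 28 had the same sign in total as in polysomal mRNA, against 69.9% of the 4367 genes. An unadjusted p under 0.05 in that direction was reached in total mRNA by 15 of the 28, against 7.26% of all genes in either direction, and 0 of them passed the adjusted threshold. Whether total and polysomal RNA came from the same cultures is not stated. Across the 4367 genes the blocked fold changes of the fractions correlated with a Pearson r of 0.60, a value that may hold what same-numbered samples have in common. TFB5 was the exception in sign, with a total log2 fold change of -0.05 (SE 0.11).

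The difference of the rancRNA_18-M2 effect between polysomal and total mRNA was tested as an interaction. No gene passed, without or with the block, and 13 (0.213%) and 77 (1.26%) of 6106 genes had an unadjusted p under 0.05. DESeq2 gave 0 calls and 16 such genes. Of the 28 named genes 4 were among them with the block. The interaction was 0.43 for TFB5 (SE 0.15, unadjusted p = 0.01162), 0.39 for RPS28B (SE 0.18), -0.30 for QRI1 (SE 0.13) and -0.30 for YGR266W (SE 0.13), each with an adjusted p of 0.9999 by edgeR's quasi-likelihood test. CRG1 and YMR206W had nearly the same value in both fractions, at -0.51 and 0.53 in total mRNA.

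Gene groups were described by counts and medians over 36 lists. No member of any list passed the adjusted threshold, without or with the block. The median log2 fold change over all 6106 genes was 0.01, with 52.2% of genes above 0 (52% with the block), and the list medians ran from -0.13 to 0.14 without the block. In 28 lists the medians of the 3 pairs had different signs. In 2 lists all 3 pair medians were above 0 and in 6 they were below 0.

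**Figure D4:**
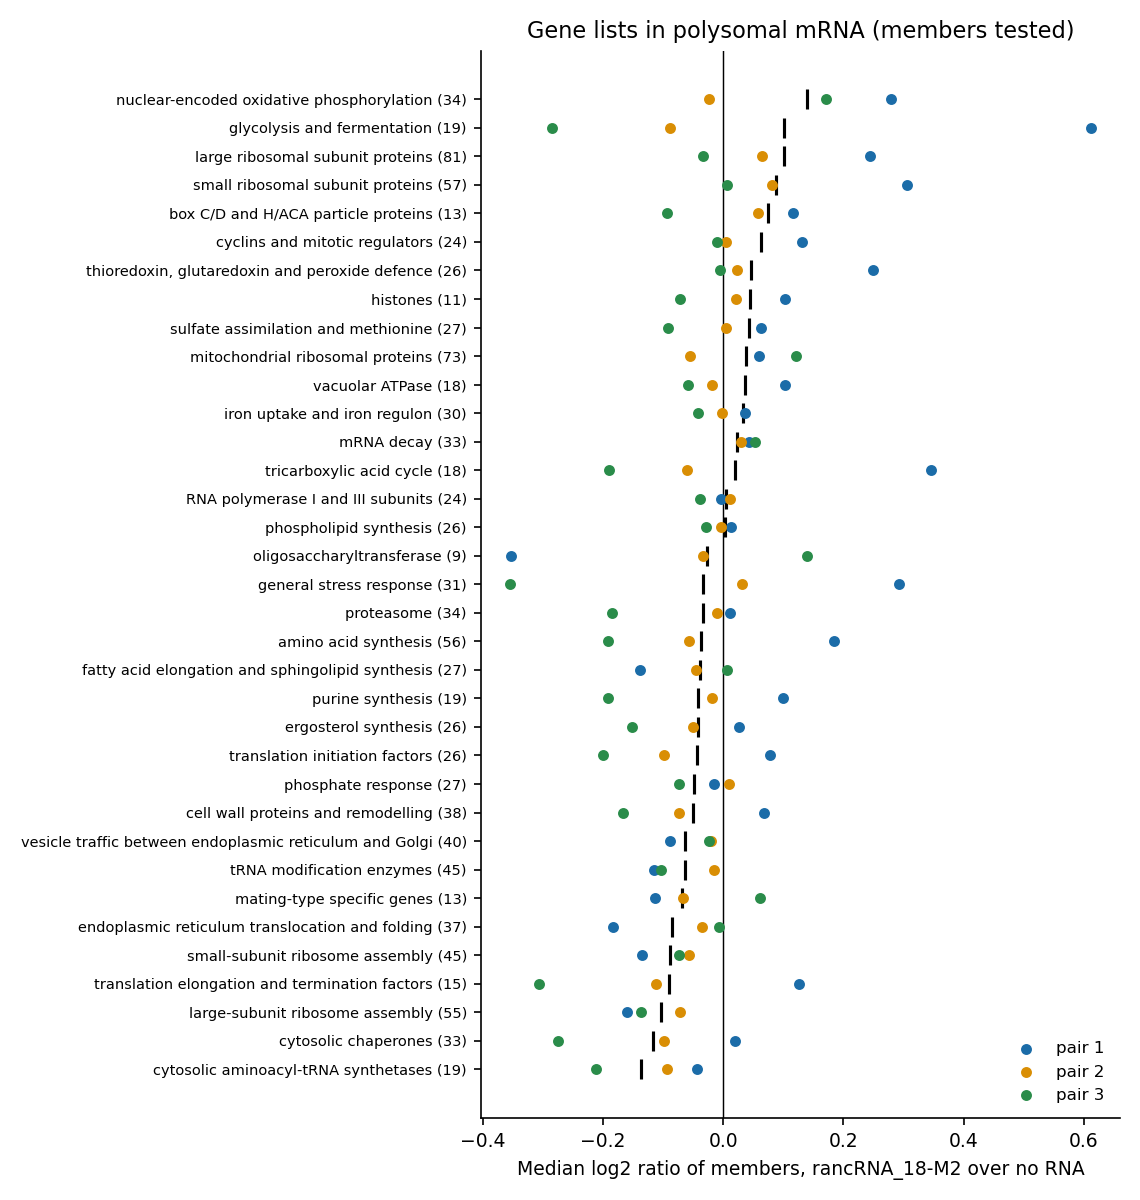
Median log2 ratio of rancRNA_18-M2 to no RNA in polysomal mRNA for 35 gene lists (members tested in brackets; nuclear noncoding RNAs, mostly under 1 CPM, are left out). Points are the 3 same-numbered pairs and black ticks the medians with the replicate block. Ticks stay between -0.14 and 0.14, while pair medians spread further, as for glycolysis and fermentation at 0.61, -0.09 and -0.28.

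Genes that build the ribosome lay below 0 in most cases. Of 55 large-subunit assembly genes 50 had a negative log2 fold change, with a median of -0.10 and pair medians of -0.16, -0.07 and -0.14. In 23 of them the value was lower in each pair, against 13.1% of all genes, and in 0 higher in each pair, against 12.3%. With the block 9 of 55 were lower at an unadjusted p under 0.05, against 3.08% of all genes, and 0 were higher. The median was -0.02 without no RNA replicate 1, -0.05 without rancRNA_18-M2 replicate 3, and -0.18, -0.19 and -0.22 without no RNA replicate 2, no RNA replicate 3 or rancRNA_18-M2 replicate 1. PUF6, an RNA-binding protein of large-subunit assembly, had 51.4, 36.9 and 55.9 CPM with no RNA and 30.8, 32.0 and 49.9 CPM with rancRNA_18-M2. It was lower in each pair with overlapping groups, at -0.37 (SE 0.14). ERB1 stood at -0.25 (SE 0.10), CIC1 at -0.35 (SE 0.15) and the helicase gene MAK5 at -0.28 (SE 0.12).

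Of 45 small-subunit assembly genes 37 were below 0, with a median of -0.09 and pair medians of -0.14, -0.06 and -0.07. With the block 3 of 45 were lower at an unadjusted p under 0.05, against 3.08% of all genes. Higher at that p were 0, against 3.75%. UTP13 (-0.26, SE 0.10), UTP15 (-0.23, SE 0.10) and UTP21 (-0.23, SE 0.10) had the smallest p. Proteins of the box C/D and H/ACA particles, which guide rRNA modification, had 8 of 13 members above 0 and a median of 0.07. The median changed sign without no RNA replicate 3 or rancRNA_18-M2 replicate 1, and 2 core C/D proteins lay lower. NOP56 had 306, 166 and 193 CPM against 167, 130 and 173 CPM (-0.48, SE 0.16), with overlap between the groups. NOP58 had 107, 92.3 and 105 CPM against 76.0, 76.7 and 87.4 CPM (-0.35, SE 0.12), without overlap. RNA polymerase I and III subunits, which make the RNA of ribosomes and tRNAs, had a median of -0.01 without and 0.00 with the block, with RPA49 at -0.29 (SE 0.10) and RPC31 at 0.24 (SE 0.11).

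Ribosomal protein genes had medians above 0 in pairs 1 and 2 after TMM scaling. Of the 81 large-subunit genes 64 lay above 0, with a median of 0.11 and pair medians of 0.24, 0.07 and -0.03. Of the 57 small-subunit genes 45 lay above 0, with a median of 0.12 and pair medians of 0.31, 0.08 and 0.01. At an unadjusted p under 0.05 with the block, 5 of 81 and 8 of 57 were higher, against 3.75% of all genes, and 1 and 1 lower, against 3.08%. RPS29B (0.40, SE 0.15), RPS21B (0.33, SE 0.12), RPL29 (0.40, SE 0.15) and RPL34A (0.34, SE 0.14) were the next by p after RPS28B, and RPL22B stood at -0.40 (SE 0.16). The large-subunit median was -0.12 without rancRNA_18-M2 replicate 1 and also changed sign without no RNA replicate 3, and the small-subunit median was -0.07 without rancRNA_18-M2 replicate 1. Large-subunit genes together took 19.47, 18.05 and 15.3% of reads with no RNA and 19.21, 18.58 and 15.72% with rancRNA_18-M2. For small-subunit genes the shares were 13.89, 13.94 and 11.67% against 13.86, 14.36 and 12.2%. In pair 1 neither share was higher with rancRNA_18-M2, while the pair 1 medians above 0 were obtained after scaling with TMM factors of 0.892 for no RNA and 0.749 for rancRNA_18-M2.

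Cytosolic aminoacyl-tRNA synthetases, which charge tRNAs, had 17 of 19 members below 0 and a median of -0.13, with pair medians of -0.04, -0.09 and -0.21. In 14 of 19 the value was lower in each pair, against 13.1% of all genes. KRS1, of lysyl-tRNA, had 242, 155 and 203 CPM against 180, 132 and 161 CPM, lower in each pair with overlap, at -0.34 (SE 0.11). MES1, of methionyl-tRNA, stood at -0.29 (SE 0.12). Of 45 tRNA modification genes other than TRM10, 31 were below 0 (median -0.06), with TRM12 at -0.32 (SE 0.11) and SMM1, which makes dihydrouridine, at 0.26 (SE 0.11). Among initiation factors 8 of 26 lay above 0 (median -0.04), and the eIF3 subunit gene PRT1 stood at -0.24 (SE 0.10). Among elongation and termination factors 4 of 15 did (median -0.08), and NEW1 stood at -0.28 (SE 0.10). The pair medians of both factor lists were above 0 in pair 1 and below 0 in pairs 2 and 3.

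In energy metabolism the nuclear-encoded subunits of oxidative phosphorylation had 29 of 34 members above 0 and a median of 0.12, with pair medians of 0.28, -0.02 and 0.17. With the block 7 of 34 were higher at an unadjusted p under 0.05, against 3.75% of all genes, and 0 lower. COX9, of cytochrome c oxidase, had 487, 838 and 349 CPM against 870, 941 and 444 CPM (0.43, SE 0.14). ATP19, of the ATP synthase, had 332, 597 and 195 CPM against 470, 672 and 310 CPM (0.43, SE 0.13). Both genes were higher in each pair with overlapping groups, and QCR9 and QCR8, of the cytochrome bc1 complex, stood at 0.34 (SE 0.11) and 0.32 (SE 0.12). The list took 1.28, 1.858 and 1.167% of reads with no RNA and 1.274, 1.79 and 1.404% with rancRNA_18-M2, so its share was higher in pair 3 alone. The list median was -0.03 without no RNA replicate 3. Mitochondrial ribosomal proteins had a median of 0.02 with 41 of 73 above 0.

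Glycolysis and fermentation showed the widest split between pairs, with medians of 0.61, -0.09 and -0.28. All pairs had the same direction in 0 of its 19 genes, against 25.4% of all genes. Together these genes took 7.208, 6.958 and 9.329% of reads with no RNA and 10.14, 6.554 and 7.776% with rancRNA_18-M2. The share was highest in rancRNA_18-M2 replicate 1, and the list median of 0.12 became -0.16 without that library, and -0.22 with the block and without pair 1. GPM1, phosphoglycerate mutase, had the smallest p at 0.36 (SE 0.17). Tricarboxylic acid cycle genes split alike, at 0.35, -0.06 and -0.19 (median 0.01). General stress genes had 0.29, 0.03 and -0.35, with SIP18 at 0.39 (SE 0.15), DDR2 at 0.35 (SE 0.13) and PGM2 at -0.27 (SE 0.11).

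Cytosolic chaperones had 29 of 33 members below 0 and a median of -0.12, with pair medians of 0.02, -0.10 and -0.28. HSP82, a heat-shock protein of the HSP90 family, had 483, 466 and 583 CPM against 381, 400 and 490 CPM, lower in each pair with overlap, at -0.27 (SE 0.10). The disaggregase gene HSP104 stood at -0.27 (SE 0.10). Genes of endoplasmic reticulum translocation and folding had 14 of 37 members above 0 (median -0.08) and besides GET1 included SRP68, of the signal recognition particle, at -0.32 (SE 0.12) and SBH2, of a translocation channel, at 0.40 (SE 0.15). Vesicle genes of the route from endoplasmic reticulum to Golgi had 12 of 40 members above 0 and a median of -0.07. The p24 family gene ERP3 stood at -0.40 (SE 0.15), the receptor gene ERV41 at -0.24 (SE 0.12). Pair medians of both lists were below 0 in each pair, but the translocation and folding median was 0.02 without no RNA replicate 1.

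The other lists had medians between -0.07 and 0.07, apart from the noncoding RNAs. Ergosterol genes had 8 of 26 members above 0 (median -0.04), with pair medians of 0.03, -0.05 and -0.15. With the block 4 of 26 were lower at an unadjusted p under 0.05, against 3.08% of all genes. Higher at that p were 0, against 3.75%. Among the lower ones were ERG28 at -0.27 (SE 0.11) and MVD1 at -0.26 (SE 0.11). For fatty acid and sphingolipid genes the median was -0.03, and 9 of 27 lay above 0. Cell wall genes had a median of -0.04, with TIP1 at -0.33 (SE 0.11), CWP1 at -0.34 (SE 0.15) and CWP2 at 0.30 (SE 0.14). Amino acid, purine and sulfur genes had medians of -0.02, -0.03 and 0.05, with PRO2, of proline synthesis, at -0.30 (SE 0.11). Proteasome genes had a median of -0.02, vacuolar ATPase genes 0.04, phosphate response genes -0.05, phospholipid genes -0.01 and iron genes 0.02. Oligosaccharyltransferase genes had -0.03, redox defence genes 0.04 with SOD1 at 0.33 (SE 0.12), histones 0.04, mRNA decay genes 0.03, cyclins and mitotic regulators 0.06 with CDC28 at -0.30 (SE 0.10), and mating-type genes -0.07. Noncoding RNAs had a median of 0.14 without the block, where the pair medians were -0.36, -0.14 and 0.30.

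Most named genes of the higher side had a short coding sequence. Of the 15 there, 13 had a coding length of at most 723 bases in RefSeq R64, as had 1 of the 13 on the lower side and 25% of the 4357 genes with a known length at 20 CPM or more. The exceptions on the higher side were YMR206W with 942 and ISF1 with 1017 bases. The 1090 genes with the shortest coding sequences had a median blocked log2 fold change of 0.08, and the 3 groups of longer genes had -0.01, -0.02 and 0.00. At an unadjusted p under 0.05 with the block, 190 of the 4357 genes were higher and 153 lower. The short group held 142 higher and 22 lower genes, and the group of 723 to 1191 bases held 29 and 51. The group of 1191 to 1866 bases held 11 and 55, and the longest genes 8 and 25. Spearman's rho between coding length and log2 ratio was -0.10, -0.25 and -0.16 across genes in pairs 1, 2 and 3. In total mRNA the blocked rho had the other sign, 0.15 against -0.21 in polysomal mRNA. Without the ribosomal protein, mitochondrial ribosomal protein and oxidative phosphorylation lists the polysomal rho was -0.17.

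**Figure D5:**
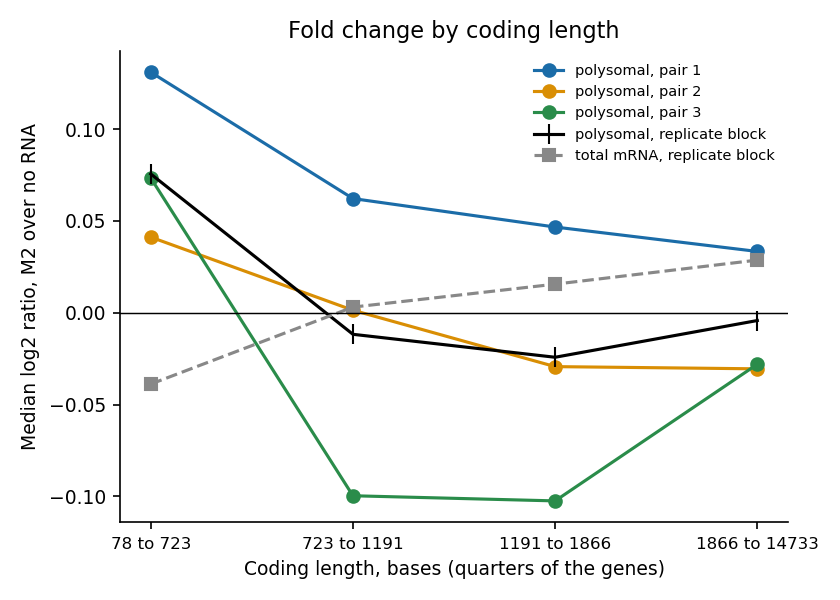
Median log2 ratio of rancRNA_18-M2 to no RNA (M2 over no RNA) against coding length in bases, in 4 groups of 1089 or 1090 genes each. Lines are the 3 polysomal pairs, the polysomal estimate with the replicate block and total mRNA with the block. In each polysomal pair the shortest genes have the highest median (0.13, 0.04 and 0.07), and in total mRNA the lowest (-0.04).

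This length relation is small beside that between replicate numbers. Within a group, rho between coding length and the log2 ratio of replicate 3 to replicate 1 was 0.70 with no RNA. With rancRNA_18-M2 it was 0.56, and for replicate 3 to replicate 2 the values were 0.57 and 0.55. The 1090 shortest genes took 55.5, 57.8 and 46.2% of reads with no RNA and 55.6, 59.3 and 50.8% with rancRNA_18-M2. Their share was higher with rancRNA_18-M2 in each of the 3 pairs, though nearly equal in pair 1. An unpaired two-sided exact permutation test gave p = 0.6 (n = 3 each), where the smallest possible is 0.1. It ignores the pairing, so it does not measure the spread of the paired differences. Within a library, Spearman's rho between log CPM and coding length was -0.48, -0.45 and -0.27 with no RNA. With rancRNA_18-M2 it was -0.46, -0.47 and -0.30, so it was stronger in pairs 2 and 3 but weaker in pair 1. The same exact permutation test of these rho values gave p = 0.8. The rho of fold change with coding length was -0.21 without the block. Leaving out no RNA replicate 3, rancRNA_18-M2 replicate 1 or rancRNA_18-M2 replicate 2 turned it to 0.35, 0.17 and 0.03. It was -0.58, -0.29 and -0.50 without no RNA replicate 1, no RNA replicate 2 or rancRNA_18-M2 replicate 3. With the block and without 1 pair at a time it stayed between -0.25 and -0.15. The gene lists differed in coding length. Lengths in the range of the shortest group were held by 70 of 81 large-subunit and 49 of 57 small-subunit ribosomal protein genes. The same held for 25 of 34 oxidative phosphorylation genes. Among synthetases it was 0 of 19, among small-subunit assembly genes 1 of 45 and among chaperones 2 of 33. Glycolysis, with a median of 0.12, also had 0 of 19. The part of coding length in the values of the gene lists was not tested.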

How the data were processed

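Each deposited file gives 1 library's unnormalized counts for every gene. Per the submitters' processing notes, the authors used FastQC, HISAT2 and featureCounts, and per the labels' protocols a strand-keeping library kit. The sources used here state no version, genome build, annotation or strand setting, so overlapping, antisense and near-identical genes are uncertain. No sequence is printed, since no build is stated. IDs were matched to RefSeq R64 locus tags for names, coding length and overlaps (6048 of 7126). The rancRNA_18 polysomal files were identical and counted once, which leaves 15 of 16 libraries.

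All 15 libraries entered edgeR 4.0.16 (R 4.3.3) with TMM, filterByExpr, 1 coefficient per group and the robust quasi-likelihood F-test. Benjamini-Hochberg adjustment ran over 6106 genes. DESeq2 1.42.0 was an alternative. The fit without a block is the planned one. The replicate numbers were taken to pair the samples, because every same-numbered pair of polysomal libraries correlated above 0.1 (0.611, 0.898 and 0.799). The numbers come from the sample titles, but the labels state no pairing, so treating equal numbers as pairs rests on the data. Fold changes printed with an SE for single genes are those with the block. Residual degrees of freedom were 9 without and 7 with it. Fits were tested on simulated data. CPM are TMM-scaled, and log CPM used a prior count of 2. Named genes followed the rule given in the text, plus up to 4 members per list with the smallest p. Members, lists and tests were chosen with earlier results of these data known, and coding length was examined after seeing the data.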

Additional observations from a re-analysis of the deposited data

How the results depend on the processing

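The number of genes called was 0 in the planned analysis and under all 16 alternatives for polysomal mRNA, and under each alternative run for the interaction with the fraction. In polysomal mRNA 38 genes had an unadjusted p under 0.05 as planned, 417 with the replicate block, 414 with the block and RLE size factors, 5 with the 6 polysomal libraries alone and 194 with these and the block. Leaving out a library gave 18 (no RNA replicate 1), 156 (its replicate 2), 78 (its replicate 3), 25 and 190 (rancRNA_18-M2 replicates 2 and 3), and leaving out a pair with the block gave 246, 482 and 809. For the interaction the count was 13 as planned, 77 with the block, 83 with the block and RLE size factors and 30 without a filter on low counts. It was 39 and 20 without no RNA replicates 1 and 2, 33 without rancRNA_18-M2 replicate 1, and 533, 93 and 50 with the block and without pair 1, 2 or 3. The replicate block changed no call. The named genes, chosen for the same sign in each pair or a small p, kept that sign, but 25 of 28 moved by over 1.5 times under at least 1 alternative. RCN2 ran from -0.80 to -0.06, the latter without no RNA replicate 1, ARI1 from -0.82 to -0.12, MRPL39 from 0.10 to 0.77 and COQ21 from 0.18 to 0.85. List medians kept their sign throughout for 7 of 36 lists, namely both assembly lists, synthetases, tRNA modification, chaperones, vesicle traffic and ergosterol. The alternatives reuse the same libraries. Between pairs, the chaperone and ergosterol medians did change sign, at 0.02 and 0.03 in pair 1 and below 0 in pairs 2 and 3. With RLE size factors the median of all genes was 0.02 and 55.2% of genes lay above 0. Depth limits genes under 1 CPM, whose median standard error was 0.59 with the block. The causes were not tested.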

Other observations

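The larger estimated fold changes belonged to genes with few reads. A log2 fold change beyond 1 in either direction was estimated without the block for 65 genes, 37 higher and 28 lower with rancRNA_18-M2. The most abundant of them had a mean of 2.68 CPM, the median of their means was 0.23 CPM, and 3 lay over 1 CPM. Only 10 of the 65 had an unadjusted p under 0.05 by edgeR's quasi-likelihood test without the block. The 2 described next are among the 3 over 1 CPM and were chosen after their values were seen. YHR050W-A had 29, 32 and 10 reads in replicates 1, 2 and 3 with no RNA and 57, 52 and 122 reads with rancRNA_18-M2. Its reads were higher in each pair and the groups did not overlap, and the blocked log2 fold change was 1.98 (SE 0.48, adjusted p = 0.7268 by edgeR's quasi-likelihood test). YNL033W had 8, 15 and 33 reads against 23, 36 and 38 reads, at 1.10 (SE 0.34, same adjusted p).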
